A study of Mus musculus with 3 samples.

Results

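Hox genes encode homeodomain transcription factors that give the cells of the embryo their position along the head-to-tail axis. In the mouse they lie in 4 clusters, A to D, and genes at the same place in different clusters are paralogues with the same number. Within a cluster the low-numbered genes act towards the head and the high-numbered genes towards the tail, limbs and genitalia. In embryonic stem cells the clusters are classical targets of Polycomb repression, while fibroblasts keep much of the Hox expression of the body region they came from. Pcgf6 is a subunit of a variant Polycomb repressive complex that also holds E2F6, MAX and MGA.

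The array carries 38 Hox cluster genes that could be named, read by 41 probes, out of 20284 genes and 26762 named probes in all. They were chosen by name, not by their values: the RefSeq accession that the scanner files give for each probe was matched to a gene symbol. The clusters contributed 10 genes of A, 10 of B, 9 of C and 9 of D. By number, 7 are anterior (groups 1 to 3), 15 central (4 to 8) and 16 posterior (9 to 13). Only Hoxa9, Hoxa13 and Hoxb3 have a second probe.

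Total RNA of male mouse embryonic stem cells was labelled with Cy3 and hybridised to 3 one-colour Agilent arrays. One array held wildtype cells. Another held Pcgf6KO cells, made with Cas9. The last held Pcgf6KO cells carrying Pcgf6_flag after lentiviral infection, labelled Pcgf6KO+ Pcgf6_flag. All the cultures were grown in serum and leukemia inhibitory factor on mouse embryonic fibroblasts whose division had been stopped with mitomycin-C, so fibroblast RNA can be in every sample. How many knockout clones or cultures stand behind each array, and which promoter drives the transgene, are not given in the sources used here. The word muscle appears in a source label, but the stated cell type is embryonic stem cell, and 20 of 20 stem cell markers were measured on each array. The series asks which genes Pcgf6 regulates in these cells.

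Each group is 1 array, so no difference between groups could be set against a spread between cultures, and no test was possible. The processed signal is the scanner's background-subtracted brightness in arbitrary units. The level is log2 of that signal minus the 75th percentile of the array, so a level of 0 lies at that percentile. A gene was called measured where most spots of its probe were well above background. A gene was called different past 2-fold, and where 1 of 2 arrays did not measure it the difference is a bound, written "at least". The direction of a bound was fixed by which array measured the gene. The 3 arrays had 75th percentiles of 4286, 4669 and 5120 and no saturated spot. The first 2 arrays share a slide and the Pcgf6KO+ Pcgf6_flag array lies on another, where 60.7% of probes were well above background against 65.3% and 66.0%. The lowest signal well above background was 103 on that array against 52.7 and 53.4. The probe of Pcgf6 itself read 14333 on the wildtype array, 7704 on the Pcgf6KO array and 6202 on the array labelled Pcgf6KO+ Pcgf6_flag, so the array labelled as carrying the transgene had the lowest of the 3 readings. Whether the probe lies in the edited or the reintroduced part of the transcript was not checked. The slide and the genotype of that array, called the third array below, cannot be told apart.

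Promoters of 5 members are shown because the results turn on them: Hoxa11 and Hoxd10 were among the members with the largest deficits in the knockout, Hoxd1 was the 1 member higher there by 2-fold, and Hoxa13 and Hoxd13 went opposite ways on the third array. Each is the 250 bases before the gene's start, read 5′ to 3′ on the gene's own strand from RefSeq on GRCm38.p6. The capitals mark CpG dinucleotides.
Hoxa11 (chr6:52245811-52246060, minus strand): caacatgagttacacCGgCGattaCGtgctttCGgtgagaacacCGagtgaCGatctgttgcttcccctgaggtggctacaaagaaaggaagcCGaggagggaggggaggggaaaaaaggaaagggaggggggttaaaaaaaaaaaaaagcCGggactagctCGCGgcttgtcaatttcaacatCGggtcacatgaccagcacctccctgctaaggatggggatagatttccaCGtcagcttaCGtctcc
Hoxd10 (chr2:74691641-74691890, plus strand): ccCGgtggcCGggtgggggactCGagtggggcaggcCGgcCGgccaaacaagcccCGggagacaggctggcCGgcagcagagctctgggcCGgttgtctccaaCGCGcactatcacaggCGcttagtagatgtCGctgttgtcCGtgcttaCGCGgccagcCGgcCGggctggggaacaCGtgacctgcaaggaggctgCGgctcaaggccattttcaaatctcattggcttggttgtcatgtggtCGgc
Hoxd1 (chr2:74762730-74762979, plus strand): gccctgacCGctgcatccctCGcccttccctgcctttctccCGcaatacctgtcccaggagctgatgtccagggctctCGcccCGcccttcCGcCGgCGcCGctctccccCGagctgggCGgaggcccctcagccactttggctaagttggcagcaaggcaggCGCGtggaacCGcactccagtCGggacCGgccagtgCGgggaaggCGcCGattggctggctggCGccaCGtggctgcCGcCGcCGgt
Hoxa13 (chr6:52260881-52261130, minus strand): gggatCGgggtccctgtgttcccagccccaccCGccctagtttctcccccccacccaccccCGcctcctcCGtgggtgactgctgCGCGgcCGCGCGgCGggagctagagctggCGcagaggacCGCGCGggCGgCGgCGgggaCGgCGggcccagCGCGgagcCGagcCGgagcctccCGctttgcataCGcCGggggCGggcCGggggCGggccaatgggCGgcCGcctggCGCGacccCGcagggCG
Hoxd13 (chr2:74667975-74668224, plus strand): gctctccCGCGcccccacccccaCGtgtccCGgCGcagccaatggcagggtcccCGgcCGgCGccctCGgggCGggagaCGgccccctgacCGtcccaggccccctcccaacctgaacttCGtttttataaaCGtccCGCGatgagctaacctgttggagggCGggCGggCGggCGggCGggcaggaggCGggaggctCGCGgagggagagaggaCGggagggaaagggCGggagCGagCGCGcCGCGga
These windows hold 13, 20, 24, 35 and 31 CpG dinucleotides respectively. The promoter table matched 22 of the 38 genes, with 24 windows. The median Hox window held 12.5 CpG dinucleotides (range 2 to 35) and had a GC content of 58.6%, against 6 and 52.4% over 32851 promoters of the same length. The observed CpG count was 0.72 of that expected from base composition, against 0.37. The E-box CACGTG, the kind of site that MAX partners bind, was found on either strand in 4 of 24 Hox windows, 16.7%, against 6.02% of all promoters. Those 4 belong to Hoxd1, Hoxd10, Hoxd11 and Hoxd13, all of cluster D. Clusters B and C were hardly covered, with windows of Hoxb1, Hoxb4, Hoxb8 and Hoxc4 only. The E2F-type motif GGCGGGAA was in 0 Hox windows, against 1.86% of all promoters. The T-box-type motif AGGTGTGA was in 1, that of Hoxd9, against 1.12%. These matches describe letters in the window and were not tied to binding.

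Hox transcripts were dim but present on the wildtype array, where feeder fibroblast RNA can contribute. On the wildtype array 30 of 38 members were measured, on the Pcgf6KO array 23, and on the Pcgf6KO+ Pcgf6_flag array 11. All 38 had a mean level below the median of the genes measured. Of the 30 members measured in wildtype, 21 were also measured in Pcgf6KO (70.0%), whereas 97.8% of all genes measured in wildtype were, and 95.4% of those below the median. On the third array 10 of the 30 remained (33.3%), against 92.5% of all genes and 84.4% of the genes below the median. Fibroblast markers kept 93.3% and 73.3%. These shares start from members detected in wildtype, and the genes below the median were not matched to them in brightness. Some members lost in the knockout were near the floor of 52.7 in wildtype, such as Hoxd9 at 56.9 and Hoxa9 at 83.1. Others were well above it, such as Hoxa11 at 367 and Hoxc6 at 301. The lowest signal well above background was also higher on the third array (103), and its part in this drop was not tested. As these are bulk samples, fewer cells with a transcript and less transcript per cell cannot be told apart.

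The 10 members measured on all 3 arrays were Hoxa7, Hoxa13, Hoxb5, Hoxb9, Hoxb13, Hoxc4, Hoxc5, Hoxc13, Hoxd12 and Hoxd13. These include all 4 members of paralogue group 13, which pattern the digits and the genital and tail regions. Another 11 were measured in wildtype and Pcgf6KO only, and 9 in wildtype only (Hoxa5, Hoxa9, Hoxa10, Hoxa11, Hoxb6, Hoxc6, Hoxc8, Hoxd9 and Hoxd11). Hoxd1 was measured in Pcgf6KO alone and Hoxa2 on the 2 arrays of edited cells. The 6 members measured on no array were Hoxa4, Hoxa6, Hoxb1, Hoxc11, Hoxc12 and Hoxd3. Hoxb1, which specifies the hindbrain segment of the facial nerve, is printed 10 times on the array. Well above background were 0 of 10 of its spots on the wildtype array, 2 of 10 on the knockout array and 0 of 9 kept spots on the third array.

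**Figure D1:**
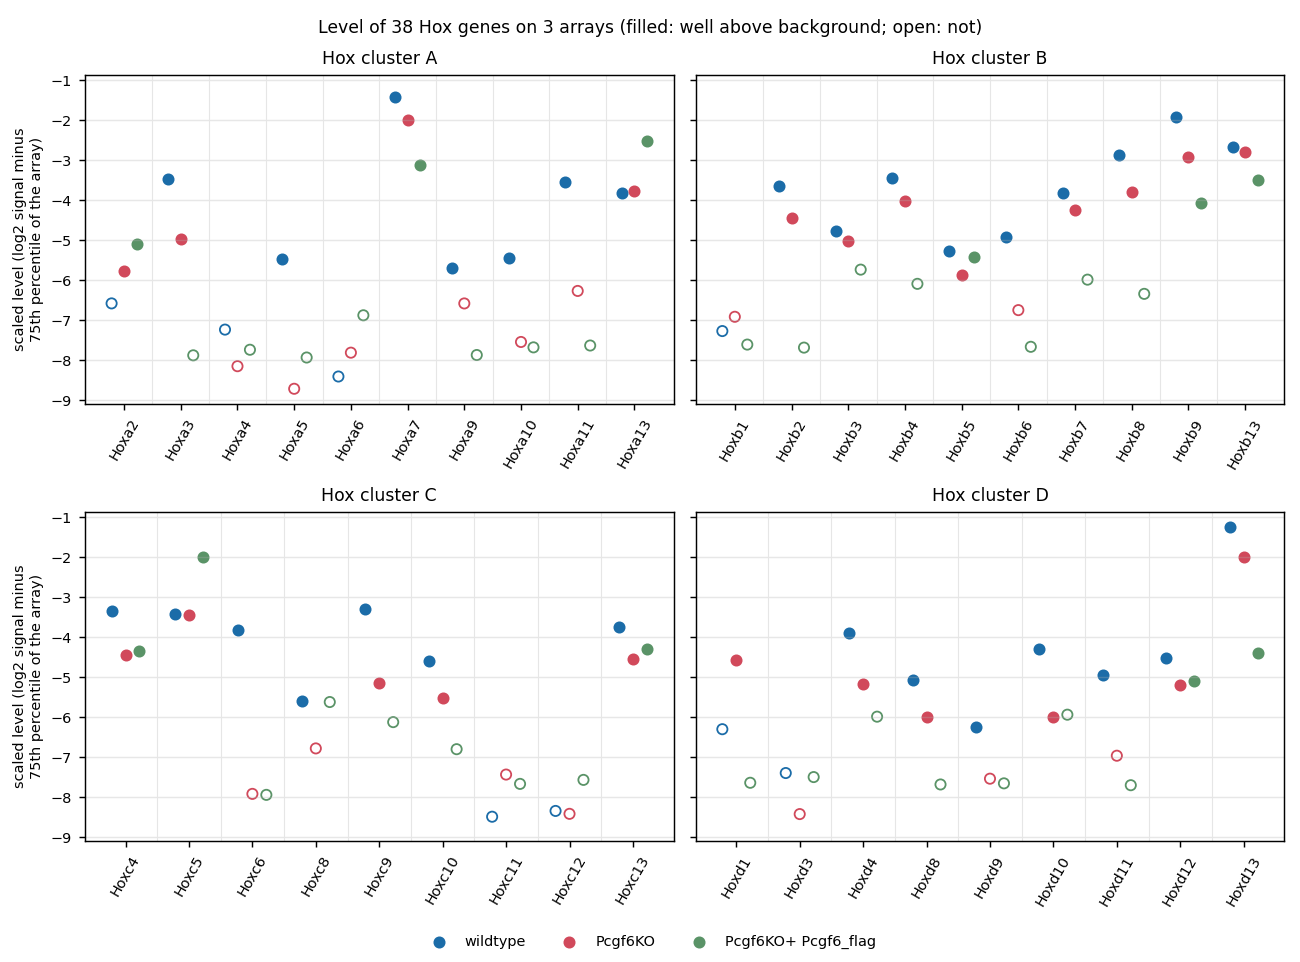
Level of each of the 38 Hox genes on the 3 arrays, by cluster; the y axis is log2 signal minus the 75th percentile of the array, filled points were well above background and open points were not. Levels of different genes come from different probes and are not comparable with each other; within a gene the wildtype point is most often the highest, while Hoxa13 and Hoxc5 are highest on the Pcgf6KO+ Pcgf6_flag array.

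In the knockout the median Hox difference from wildtype was below 0 in each of the 4 clusters, and Hoxa11, Hoxc6, Hoxc9 and Hoxd10 were more than 3-fold lower. Of the 21 members measured in both, 5 passed 2-fold downwards and 0 upwards. The same rule called 2.73% of all genes lower and 5.91% higher, and among genes below the median signal 5.19% and 11.7%. Of the 11 members with a bound, 5 were at least 2-fold lower and 1, Hoxd1, at least 2-fold higher, while among all genes with a bound 16.5% and 20.9% did so. Measured and bound members together gave 10 of 32 lower and 1 higher, against 3.49% and 6.74% of all genes and 6.45% and 12.8% of those below the median signal. The median difference of the 32 members with a value, bounds included, was -0.83, against -0.01 over all genes and 0.12 over genes below the median signal. Over the 21 members measured on both it was -0.80, against -0.02 over all genes measured on both. Hoxa13 aside, each of the 21 differences lay below 0, that is 20 of 21, against 52.1% of all genes and 42.1% of those below the median signal. That count ran from 18 to 21 of 21 under the other scalings and background correction, with Hoxa13, Hoxb13 and Hoxc5 the genes that changed sign. As a yardstick, differences between single spots of one probe, 1 on each array, had an SD of 0.18 in the level range of the Hox genes, which covers spot noise and not culture-to-culture variation. Only probes with all 10 spots well above background entered it, so it can be too small for dimmer probes. Within single arrays the spots of Hoxa11 had an SD of 0.07 in wildtype and 0.18 in the knockout. Those of Hoxb1, measured on neither, had 0.53 and 0.85.

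The 5 members called lower on measured values came from clusters A, C and D. Hoxc9, which sets the identity of thoracic motor neurons, gave a signal of 437 ± 45.6 (scanner error of the spot) in wildtype, 132 ± 19.0 in Pcgf6KO and 73.6 ± 27, not well above background, on the third array. It stood highest in wildtype, and its difference between knockout and wildtype was -1.85 ± 0.26, where the error combines the scanner errors of both spots. Hoxd10, a regulator of lumbar motor neurons and hindlimb, read 219 ± 24.6, 72.7 ± 13.3 and, not well above background, 83.7 ± 24.0. Its difference was -1.71 ± 0.31, and the signals of both arrays of edited cells lay close together. Hoxa3, needed for the thymus and parathyroid, read 384 ± 39.9, 148 ± 18.7 and, at background, 21.8 ± 21.9, with a difference of -1.50 ± 0.24. It was highest in wildtype and lowest on the third array.

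Hoxd4 and Hoxc4, paralogues that act in the hindbrain and neck vertebrae, completed the 5. Hoxd4 read 287, 130 and, not well above background, 80.9, a difference of -1.26 ± 0.26 in the knockout. Hoxc4 read 424, 213 and 251, so that its difference was -1.12 ± 0.22 and both arrays of edited cells were alike. Hoxb9, a thoracic patterning gene, lay just inside 2-fold at -0.98 ± 0.21. With the normexp background correction only Hoxa3 and Hoxc9 remained past 2-fold, and Hoxd10 was at -0.99.

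Another 5 members were measured in wildtype and lost in the knockout with a bound past 2-fold. Hoxa11, which patterns the forearm and the kidney, has 10 spots, all well above background in wildtype with signals from 346 to 391. In Pcgf6KO 2 of its 10 spots were well above background, with signals from 51.5 to 79.0, and on the third array 0 of 8 kept spots were, from 22.6 to 34.1. The wildtype spots did not overlap those of either other array, and Hoxa11 was at least 6.59-fold lower in the knockout. On the third array 2 Hoxa11 spots marked as outliers, with signals of 76.5 and 275, were left out. Hoxc6, a gene of forelimb-level motor neurons, read 301 in wildtype and 19.3 and 20.8 on the other arrays, at least 6.16-fold lower in the knockout. Its signal was at background on both arrays of edited cells.

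Hoxb6 was at least 2.89-fold lower in the knockout, with signals of 142, 43.5 and 25.2. Hoxd11, the paralogue that acts with Hoxa11 in the forearm, was at least 2.85-fold lower, with signals of 140, 37.5 and 24.6. Hoxa10, which patterns lumbar vertebrae and the uterus, was at least 2.01-fold lower, with 98.5, 25 and 25. In all of these the 2 signals from edited cells were at or near background. Hoxa5, a gene of lung and neck patterning, missed the threshold with a bound of at least 1.98-fold (97.0, 11.1 and 20.9), as did Hoxc8 at 1.80-fold, Hoxa9 at 1.70-fold and Hoxd9 at 1.16-fold.

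Hoxd1, which acts in pain-sensing neurons, went the other way. It read 54.5 ± 13 in wildtype, where it was not well above background, and 197 ± 23.0 in Pcgf6KO, then 25.7 ± 25.8, at background, on the third array. It was at least 3.32-fold higher in the knockout than in wildtype and at least 2.10-fold higher there than on the third array. With normexp its difference between knockout and wildtype was 0.79. Hoxa2, the selector of the hyoid arch, read 44.8 (not well above background), 86.2 and 150. Its reading was lowest in wildtype, and the bound between knockout and wildtype was at least 1.5-fold, inside the threshold.

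**Figure D2:**
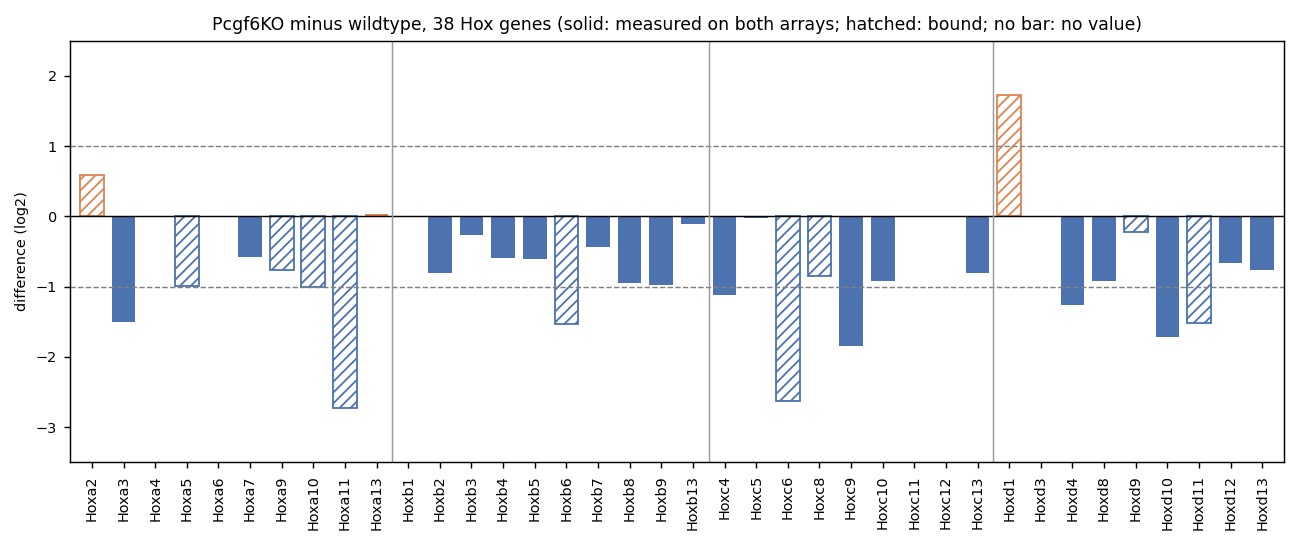
Difference between the Pcgf6KO and wildtype arrays (log2) for the 38 Hox genes in order of cluster A to D; solid bars were measured on both arrays, hatched bars are bounds, genes without a bar were measured on neither, and dashed lines mark 2-fold. Bars point down for all but Hoxa2, Hoxa13 and Hoxd1, and Hoxa11 and Hoxc6 reach furthest; the bar of Hoxc5 is too short to see.

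The other 16 members measured in both wildtype and knockout lay within 2-fold. In cluster B, differences ran from -0.11 for Hoxb13 to -0.98 for Hoxb9, all 8 of them below 0. Hoxb8 read 592 and 334 (-0.95), Hoxb2 345 and 215 (-0.81), Hoxb4 397 and 287 (-0.59), Hoxb7 304 and 246 (-0.43) and Hoxb5 111 and 79.7 (-0.60). Hoxb3 is the gene whose probes disagreed in size: the brighter gave 157 and 143 (-0.26), and the other 166 and 73.7 (-1.30, past 2-fold). In cluster C, Hoxc10 read 176 and 102 (-0.92), Hoxc13, needed for hair, 320 and 200 (-0.80), and Hoxc5 398 and 428 (-0.02). In cluster D, Hoxd8 read 128 and 73.7 (-0.92), Hoxd12 186 and 127 (-0.67) and Hoxd13 1827 and 1177 (-0.76). In cluster A, Hoxa7 read 1605 and 1167 (-0.58) and Hoxa13 304 and 340 (0.04), while the second probes of Hoxa9 and Hoxa13 were measured on no array.

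By cluster the median differences, bounds included, were -0.87 for A, -0.60 for B, -0.92 for C and -0.84 for D. By position they were -0.26 for the 5 anterior members with a value, -0.92 for the 13 central and -0.86 for the 14 posterior members. These orders depended on the bounds. Over members measured on both arrays the medians were -0.81 for 3 anterior, -0.60 for 9 central and -0.80 for 9 posterior members. By cluster they were then -0.58 for A, -0.60 for B, -0.92 for C and -0.92 for D. Among paralogue groups, groups 6 and 11 had no member measured in the knockout, after 2 each in wildtype. In group 13 all 4 members were measured on both arrays and none reached 2-fold. Nor did any member of groups 2, 5, 7, 8 and 12, measured or by a bound.

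On the array labelled Pcgf6KO+ Pcgf6_flag most Hox transcripts read lower than in wildtype, with Hoxa2, Hoxa13 and Hoxc5 the exceptions among members with a value. Against wildtype, 4 of the 10 members measured on both passed 2-fold downwards and 2 upwards, where all genes gave 4.97% lower and 4.73% higher, and genes below the median signal 9.79% and 9.97%. A further 11 of 19 bounds were at least 2-fold lower and 1, Hoxa2 at 2.38-fold, higher, against 29.6% and 20.2% of all genes with a bound. Together 15 of 29 members were lower and 3 higher, against 6.63% and 5.77% of all genes and 12.6% and 11.4% of those below the median signal. The median over the 29 members with a value was -1.02, against -0.05 over all genes. Over the 10 members measured on both it was -0.69, against -0.04 over all genes measured on both. A bound for a member measured in wildtype only could not be positive, and the third array had the higher floor (103 against 52.7). Counts and medians with bounds are therefore partly set by detection.

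Hoxd13, a digit and genital patterning gene, gave the largest of these differences among measured members. It read 1827 ± 183 in wildtype, 1177 ± 118 in the knockout and 244 ± 33.0 on the third array. It differed by -3.16 ± 0.24 from wildtype and by -2.40 ± 0.24 from the knockout. Hoxb9 read 1126, 622 and 304, which is -2.14 ± 0.24 against wildtype and -1.16 ± 0.25 against the knockout. Hoxa7 read 1605, 1167 and 591, which is -1.70 ± 0.21 and -1.11 ± 0.21. All 3 descended from wildtype through knockout to the third array, and Hoxb13 (670, 676 and 454) did so on the scaled level.

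Hoxc5 and Hoxa13 stood out upwards on the third array. Hoxc5 read 398 ± 41.5, 428 ± 44.7 and 1278 ± 130, so that wildtype and knockout were alike and the third array was higher by 1.43 ± 0.21 than wildtype and by 1.44 ± 0.21 than the knockout. Hoxa13 read 304 ± 32.8, 340 ± 36.4 and 894 ± 92.6, higher by 1.30 ± 0.22 and 1.26 ± 0.21. Both pass 2-fold under each scaling tried and with the normexp correction. Each rests on 1 spot per array, and the second Hoxa13 probe, with a signal of 21.2 on the third array, was not well above background there.

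Of the members measured on all 3 arrays, 4 had their lowest level in the knockout and their highest in wildtype. Hoxc4 read 251 on the third array, -1.02 ± 0.24 from wildtype and 0.10 ± 0.25 from the knockout. Hoxc13 read 260 (-0.55 and 0.25), Hoxd12 151 (-0.55 and 0.12) and Hoxb5 121 (-0.14 and 0.46). With normexp or without scaling, Hoxb5 was no longer below wildtype on the third array, and with quantile normalization Hoxd12 was below the knockout there. None of these differences from the knockout reached 2-fold. Those of Hoxc4, Hoxc13 and Hoxd12 lay within their scanner errors of 0.25, 0.26 and 0.32. This order, wildtype, then the third array, then knockout, was held by 4 of the 10 members and by 14.9% of 14149 genes measured on all arrays. The order wildtype, knockout, then the third array was held by another 4 members and by 17.3% of genes.

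Between the third array and the knockout, which is also 1 of the arrays of the comparison above, 3 of 11 measured members were at least 2-fold lower and 2 higher, against 8.65% and 5.15% of all genes and 17.4% and 10.6% of those below the median signal. Of 10 bounds 5 were at least 2-fold lower (Hoxb8 at 3.56-fold, Hoxb4 at 3.05-fold, Hoxb7 at 2.61-fold, Hoxb2 at 2.29-fold and Hoxd1 at 2.10-fold) and 0 higher, against 35.8% and 17.4% of all genes with a bound. Together 8 of 21 members were lower and 2 higher, against 10.6% and 6.03% of all genes and 20.2% and 11.6% of those below the median signal. Of those 5, 4 are cluster B genes. Hoxb4, known for its effect on blood stem cells, had signals of 397, 287 and 75.1, the last not well above background. Hoxb8 read 592, 334 and, not well above background, 63.2, and was at least 6.86-fold lower on the third array than in wildtype. The direction of the median depended on the bounds: it was -0.61 with them and 0.12 over the 11 members measured on both.

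**Figure D3:**
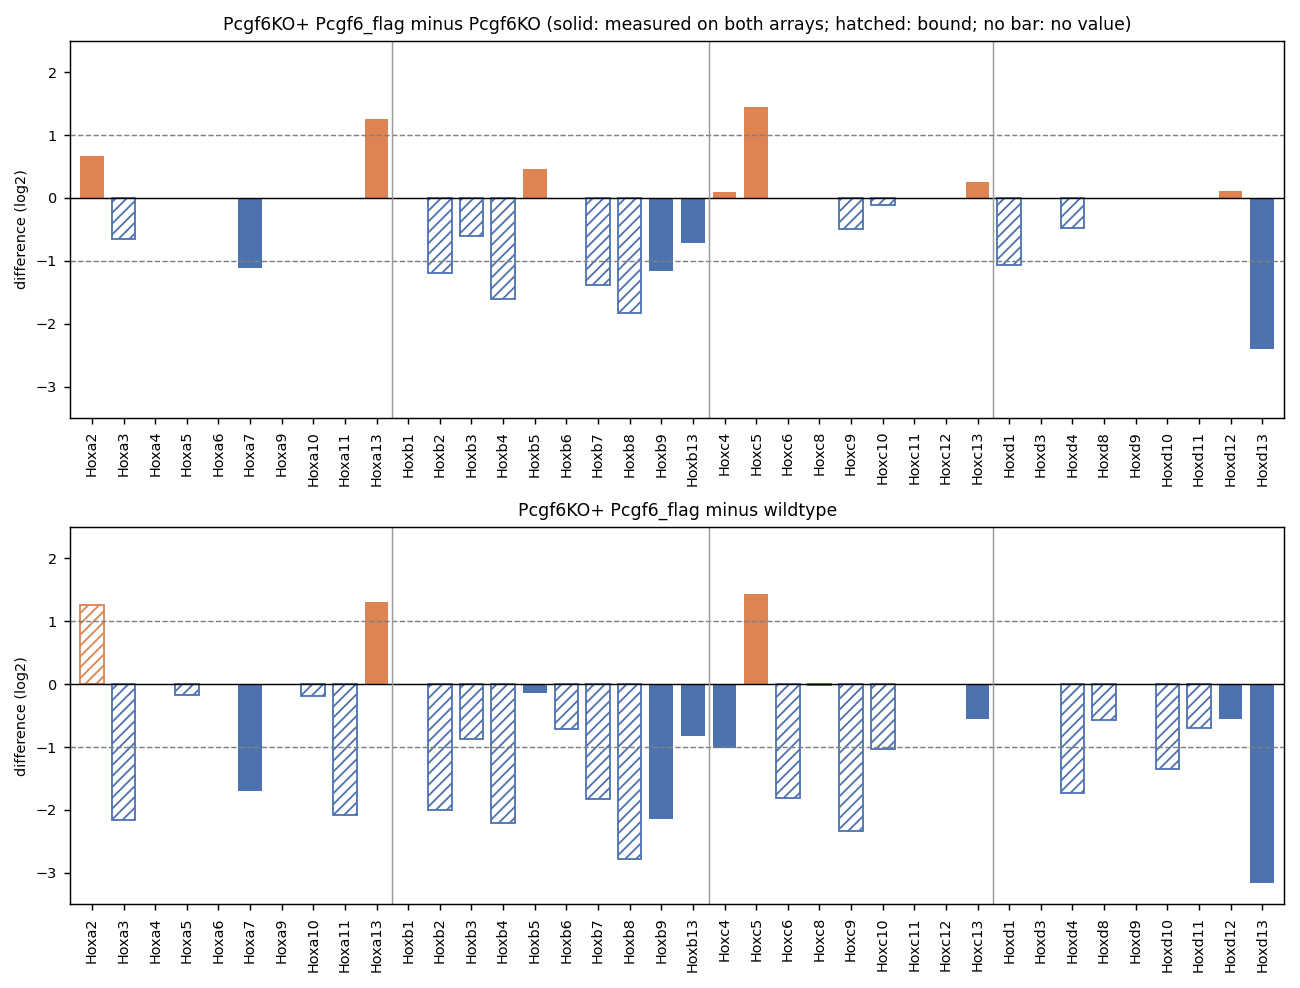
Differences (log2) of the Pcgf6KO+ Pcgf6_flag array from the Pcgf6KO array (top) and from the wildtype array (bottom) for the 38 Hox genes in order of cluster A to D; solid bars were measured on both arrays, hatched bars are bounds, and genes without a bar have no value. The run of hatched bars in cluster B, the deep bar of Hoxd13 and the upward bars of Hoxa13 and Hoxc5 appear in both panels, which share the third array.

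The bounds against wildtype on the third array were spread over the clusters. After Hoxb8, they were at least 5.06-fold for Hoxc9, 4.60-fold for Hoxb4, 4.45-fold for Hoxa3, 4.25-fold for Hoxa11, 3.53-fold for Hoxb7 and 3.49-fold for Hoxc6. Hoxd4 was at least 3.32-fold lower, Hoxd10 2.54-fold and Hoxc10 2.04-fold, with Hoxb2 at 4.0-fold. These are limits set by the detection floor of that array, so their order is not an order of change.

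Summed over the members of a cluster, the scaled signal in Pcgf6KO was 58.4% of wildtype for A, 63.6% for B, 49.8% for C and 58.2% for D, and 58.5% for all 38. On the third array the sums were 50.3% for A, 27.5% for B, 80.5% for C and 19.7% for D. These sums include signals not well above background: on the third array 3 of 10 members of A, 3 of 10 of B, 3 of 9 of C and 2 of 9 of D were measured. In cluster C this sum holds the high Hoxc5 value, and in cluster D the low Hoxd13 value.

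Many fibroblast markers were lower as well. Of 31 markers on the array 30 were measured in wildtype, 28 in Pcgf6KO and 22 on the third array, and their summed scaled signal was 126, 71.8 and 53.3, or 57.0% and 42.3% of wildtype. In the knockout 12 of 28 passed 2-fold downwards and 0 upwards, against 2.73% and 5.91% of all genes. A bound put 2 more lower, and the median difference was -0.92. The collagen genes varied in level, and 3 of the 7 measured lay below the array's 75th percentile in wildtype. The level of Col1a1 was 2.38, 1.46 and -1.08 on the 3 arrays, and that of Col1a2 2.47, 0.48 and -2.28. Col3a1 went 0.30, -2.16 and -5.01, Thy1 2.20, 1.08 and 0.76, and Pdgfrb -2.65, -4.80 and -7.82, the last not well above background. Each of Col1a1, Col1a2, Col3a1, Thy1 and Pdgfrb was well above background in wildtype. On the third array 15 of 22 markers were at least 2-fold lower than in wildtype, 8 more were lower by a bound and 1 was higher, Cav1 (1.02 from wildtype and 1.94 from the knockout). Fn1 (-0.01) and Sparc (-0.16) were near their wildtype level there. In that comparison 4.97% of all genes measured on both arrays were lower and 4.73% higher. Among all genes with a bound 29.6% were lower and 20.2% higher, and such bounds depend on the floor of 103 of the third array. The median difference of the third array from wildtype, bounds included, was -2.54 for the markers and -1.02 for the Hox members. The part of feeder RNA in the Hox differences was not tested. Stem cell markers summed to 87.4% and 99.4% of wildtype, with 0 of 20 past 2-fold in either comparison with wildtype.

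**Figure D4:**
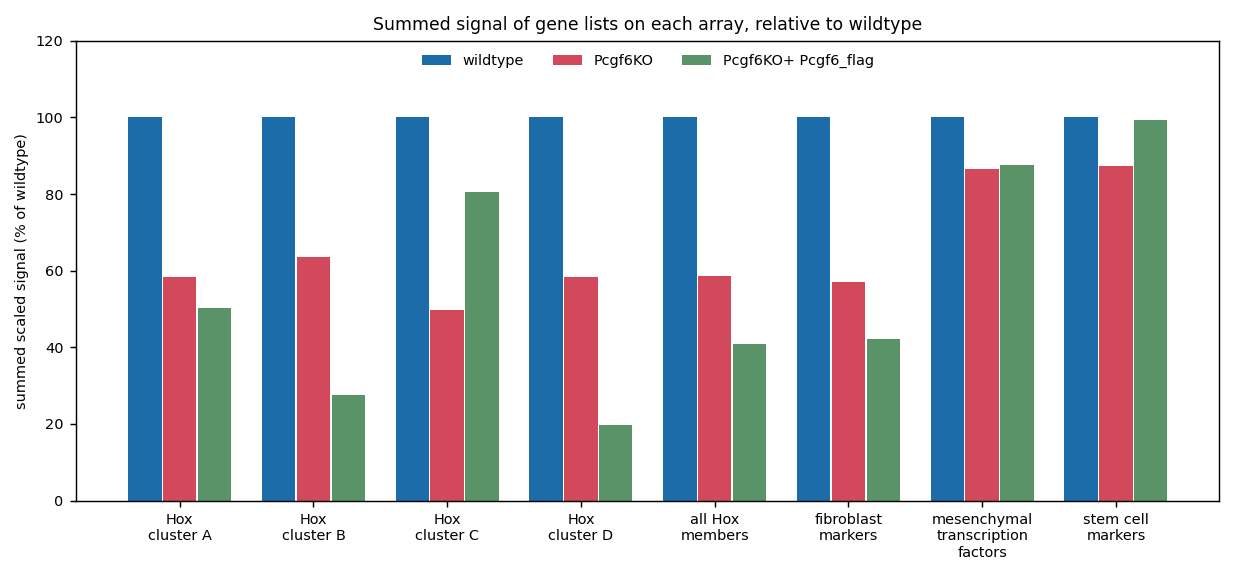
Summed scaled signal of each Hox cluster, of all Hox genes and of 3 marker lists on the 3 arrays, as a percentage of the wildtype array, 1 array per bar, signals not well above background included. In Pcgf6KO the Hox genes stand at 58.5% and the fibroblast markers at 57.0%, and on the Pcgf6KO+ Pcgf6_flag array at 40.9% and 42.3%, while the stem cell markers stand at 87.4% and 99.4%. Sums weigh bright genes most: the median log2 difference of the Pcgf6KO+ Pcgf6_flag array from wildtype was -1.02 for Hox genes and -2.54 for fibroblast markers.

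Transcription factors of mesenchyme also lay below 0 by their median. In that list 7 of 28 measured members were at least 2-fold lower and 2 higher, against 2.73% and 5.91% of all genes. A bound put 4 more lower, and the median with bounds was -0.45. Foxc2, a regulator of mesenchyme and vessels, differed by -3.0 (signals of 618 and 84.1), Nfix by -2.02 and Tbx15 by -1.72. Homeobox genes outside the Hox clusters, 14 of which are also on the mesenchymal list, gave a median of -0.05. Of 66 measured, 5 were lower and 6 higher, with 1 more each way by a bound. Measured genes were led upwards by Dlx3 (2.12) and Dlx4 (2.0), neighbours in the genome, and by Dbx2 (1.6). Downwards they were led by Meox1 (-1.57), a somite gene on both lists. The bound downwards was Prrx1, also on both lists, which was at least 36.9-fold lower in the knockout. It read 1809 in wildtype and, not well above background, 11.3 in Pcgf6KO. The Hox median of -0.83 therefore lay nearer to that of the fibroblast markers than to that of other homeobox genes, which is a description of these 2 arrays. Between the third array and wildtype the Hox median of -1.02 lay nearer to that of other homeobox genes (-0.24) than to that of fibroblast markers (-2.54). The mesenchymal list stood at -1.16 in that comparison.

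**Figure D5:**
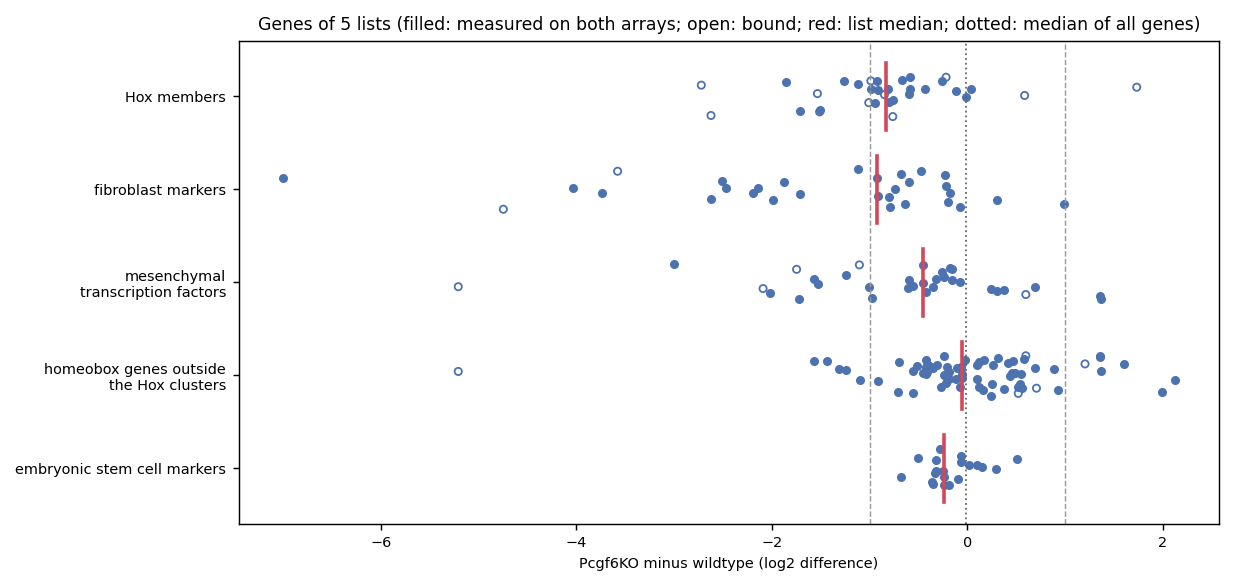
Difference between the Pcgf6KO and wildtype arrays (log2) of single genes in 5 lists; filled points were measured on both arrays, open points are bounds, red bars are list medians, the dotted line is the median of all genes and dashed lines mark 2-fold. The median is -0.83 for the Hox genes, -0.92 for fibroblast markers, -0.45 for mesenchymal transcription factors, -0.05 for homeobox genes outside the clusters and -0.24 for stem cell markers.

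Genes that flank the clusters lay on both sides of 0 in the knockout. Of 11 measured neighbours 0 were at least 2-fold lower in the knockout and 1 higher, Ttll6 (signals of 875 and 2134, 1.16), which lies beside cluster B. The shares over all genes were 2.73% and 5.91%. The median of the neighbours was 0.14. Evx1, beside Hoxa13, differed by -0.52, Skap2 by -0.51, Hibadh by -0.20, Skap1 by 0.22, Lnpk by 0.54, Mtx2 by 0.47, Smug1 by 0.50, Cbx5 by -0.39, Calcoco1 by -0.69 and Hnrnpa1 by 0.14. Hoxa11os, the antisense RNA that overlaps Hoxa11, read 394, 150 and 131, a difference of -1.52 in the knockout. It was lower there together with Hoxa11, and whether each probe reads only its own strand was not checked.

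Some regulators and partners of Hox genes passed 2-fold in the knockout. Over all genes 2.73% were at least 2-fold lower and 5.91% higher, and the lists below are short. Of 9 TALE cofactors, which bind DNA together with Hox proteins, 1 was at least 2-fold lower in the knockout, Meis2 (919 and 388, -1.37), and 0 higher. Pknox2 differed by -0.53, Meis1 by 0.29 and Pknox1 by -0.26. Cdx genes, activators of central and posterior Hox genes, were not lower in the knockout past 2-fold: Cdx2 read 781, 1213 and 185, and Cdx4 440, 705 and, not well above background, 129. Within 2-fold in the knockout (0.51 and 0.56), both were lower on the third array than in the knockout, with a difference of -2.84 for Cdx2 and a bound of -2.59 for Cdx4. Against wildtype the third array differed by -2.33 for Cdx2, by a bound of -2.03 for Cdx4 and by -0.89 for Cdx1. In the same comparison Gsx1 differed by -0.71 and Gsx2 by 1.05. Any link of these genes to the Hox differences was not tested. Gsx1 differed by 0.11 and Gsx2 by -0.06 in the knockout.

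In the retinoic acid pathway, which switches on anterior Hox genes in the embryo, 1 of 16 measured genes was at least 2-fold lower and 3 higher in the knockout. The shares over all genes, for this list and those below, were 2.73% and 5.91%. Cyp26a1, which degrades retinoic acid, differed by 1.35, Crabp1, a retinoic acid binding protein, by 1.15, and Aldh1a2, which makes retinoic acid, by 1.02. The receptor gene Rxrg differed by -1.15. Trithorax and H3K27 demethylation genes, which keep Hox genes active, had 0 of 12 past 2-fold, the largest being Kmt2d at -0.49, Dpy30 at -0.44, Kmt2c at -0.41 and Kdm6b at 0.23. Of 28 Polycomb PRC1 and PRC2 subunits measured on both arrays, canonical and variant, 0 passed 2-fold, and Cbx8 was at least 2.34-fold higher in the knockout by a bound (32.9, not well above background, and 134). Yaf2 differed by 0.70, Bmi1 by -0.60, Pcgf5 by 0.55 and Phf1 by -0.39. In the complex of Pcgf6 itself 1 of 14 passed, Pcgf6 (-1.02), with Hdac2 at 0.75 and E2f6 at 0.57.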

How the data were processed

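The deposited scanner files hold spot intensities on a linear scale, background-subtracted by the scanner software, Agilent Feature Extraction 11.5.1.1 per the file headers (the submitters' processing notes name 10.7). The value table of the series held the same processed intensity unscaled, for 55249 of 55249 single-spot probes on each array within a relative tolerance of 1e-06. Control spots and 141, 158 and 192 outlier spots were left out. Spots of a probe were averaged as log2 intensity, and the 75th percentile of the array was subtracted. A probe counted as measured if the deposited flags put over 50% of its spots well above background. Where a gene had several measured probes, the brightest was used.

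RefSeq (GRCm38.p6) symbols were looked up by unversioned accession, giving 26762 probes a gene out of 55681 and leaving 28919 unnamed. Samples were grouped by genotype label. With 1 array per group there was no test, and a fixed 2-fold rule was used. A bound used, for the array without a measurement, either the detection floor of that array or the gene's signal there, whichever was higher, and no fold was given where this left none. The number of arrays limits the precision.

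Each member measured on at least 1 array was described. From 12 other lists (271 symbols, of which 14 were not on the array or not named) Pcgf6 and up to 4 genes with the largest difference between knockout and wildtype were named, and all measured genes next to the clusters. Cav1, Cbx8, Cdx1, Fn1, Prrx1 and Sparc lie outside this rule and were chosen after their values were seen. The members and lists were chosen with earlier results of these data known. Alternatives were other scalings and background correction, filters, probe summaries, outlier spots and thresholds. The rule was tested on simulated data. Python 3.11.15 with numpy 2.4.6 and pandas 2.3.3, R 4.3.3 and limma 3.58.1 (normexp) were used.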

Additional observations from a re-analysis of the deposited data

How the results depend on the processing

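No paired analysis was possible because each group is 1 array, and for the same reason no replicate could be left out; the slide as a block was not run, since the second slide holds 1 array. For knockout against wildtype, the 5 members at least 2-fold lower became 2 with normexp (offset 50, on the median spot signal), 14 with no filter on dim probes, 1 among genes measured on all arrays, 15 at 1.5-fold, 2 at 3-fold and 10 with bounds counted. The 0 higher became 2 with no filter and 1 with bounds, and the median of -0.83 became -0.60 with normexp and -0.63 for genes measured on all arrays. For the third array against the knockout, the 3 lower became 13 with no filter, 1 at 3-fold and 8 with bounds, the 2 higher became 0 at 3-fold, and the median of -0.61 became -0.32 with normexp and turned to 0.11 for genes measured on all arrays and to 0.12 for genes measured on both. For the third array against wildtype, the 4 lower became 23 with no filter and 15 with bounds, the 2 higher became 4 with no filter and 0 at 3-fold, and the median of -1.02 became -0.61 with normexp, -1.67 with no filter and -0.69 both for genes measured on all arrays and for genes measured on both. The filter and bound settings count other members, and with no filter they include signals at background; the cause of the normexp shifts was not tested. The other 77 recomputed counts and medians stayed within 1.5 times or within the spot noise. Of the single-gene differences 564 moved by less than the spot noise, 117 moved by more, and 0 past 2-fold changed sign. Without scaling, the all-gene medians shifted to 0.11, 0.13 and 0.22 for knockout against wildtype, the third array against knockout and the third array against wildtype. Signals near the floor of 103 on the third array, and of 52.7 and 53.4 on the others, limit what can be said of dim members.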
